A study of Mus musculus with 24 samples.

Results

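Thyroid hormone acts in a tissue according to how much of its active form, T3, is made and destroyed there, how much hormone enters the cells, and which receptors bind it. The genes described here are 8 that stand for these steps and for the response to day length, namely Dio2, Dio3, Slco1c1, Crym, Thra, Thrb, Rxrg and Eya3. They were taken by symbol, all 8 were found, and they are 8 of the 19018 protein-coding genes quantified. RNA-seq was performed on 24 whole eyes of male CBA/N mice, 12 from summer-like and 12 from winter-like conditions, with 2 eyes at each of 6 times of day under each condition. Under LW, the long-day and warm condition, mice had 16 h of light and 8 h of dark at 27 °C. Under SC, the short-day and cool condition, they had 8 h of light and 16 h of dark at 10 °C. Both groups entered their condition at 10 weeks of age from equinox-like housing, stayed in it for 4 weeks and were 14 weeks old at collection. Collection began at 2 h after midnight and went on every 4 h up to 22 h. At 10 and 14 h all mice had light, at 6 and 18 h only LW mice had it, and at 2 and 22 h none had. Day length and temperature differ together between the groups, so their parts in any difference below cannot be told apart.

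The deiodinase encoded by Dio2 turns the prohormone T4 into T3, and the one encoded by Dio3 inactivates both hormones. In the mediobasal hypothalamus of birds and mammals, thyrotropin from the pars tuberalis raises Dio2 and lowers Dio3 under long days, which is the step that carries day length to the reproductive axis, and Eya3 is a long-day gene of the pars tuberalis. In the developing retina T3 and the receptor encoded by Thrb, with the partner encoded by Rxrg, set which opsin a cone makes, and Dio3 protects cones from excess hormone.

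The libraries held between 19543401 and 28859071 expected counts under LW and between 20164885 and 28447184 under SC. Values below are expected counts scaled to the mean library size, called scaled counts. Differences are LW minus SC on the scale log2(scaled count + 1), taken as the mean over the 6 times except where 1 time is given, with the p-value of limma adjusted by the Benjamini-Hochberg method over the 18233 genes tested. A gene was called where its adjusted p was under 0.05. Counts at an unadjusted p under 0.05 are given for some lists, and the share of all genes at that level was not computed. Whether a pair of eyes came from 1 mouse or from 2 is not given, and the p-values therefore measure the spread between these eyes only. Rod, lens and corneal markers were abundant in all libraries, as the eye label requires. In 2 SC libraries, the second eyes of 6 and 10 h, 11 liver markers summed to 3373 and 604 scaled counts, against at most 32.7 in any LW eye, and the first of these also held 6117 scaled counts of skin and hair markers. Fewer cells of a type and less RNA per cell cannot be told apart in a whole eye.

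None of the 8 genes was too low to read, since mean scaled counts over the 24 eyes lay between 214 for Dio3 and 5689 for Thra, above a cut of 10, and each had a number in every library. Per kb of the longest matched transcript, Thra stood highest with 2320 scaled counts per kb. Next came Crym with 298, Eya3 with 251, Thrb with 241, Slco1c1 with 196, Rxrg with 123 and Dio3 with 105 scaled counts per kb. Dio2 was lowest per kb, with 60.3. The gene bodies lie, in GRCm38.p6, on chromosome 12 for Dio2 (90724552 to 90739038) and Dio3 (110279230 to 110281097), on chromosome 6 for Slco1c1 (141524354 to 141570177), on chromosome 7 for Crym (120186380 to 120201989), on chromosome 11 for Thra (98740776 to 98769006), on chromosome 14 for Thrb (17659225 to 18040097), on chromosome 1 for Rxrg (167598362 to 167639623) and on chromosome 4 for Eya3 (132639025 to 132724765).

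Promoter windows, from 250 bases before to 50 after a transcription start, were read from RefSeq (GRCm38.p6) for the 6 members that matched its table, 8 windows in all. They are shown for the 2 deiodinases, which stand side by side in the results, and for the 2 members called for time of day under SC. Of all genes, 10.7% were called in that comparison. The capitals mark matches, on either strand, to a cAMP response element (CRE, TGACGTCA) or to an E-box (CACGTG), the element read by clock proteins. The window of Dio2 is chr12:90738989-90739288 (minus strand) and has a CRE whose first base is 95 bases upstream of the start. That of Dio3, chr12:110278980-110279279 (plus strand), holds no match. The window of Slco1c1, chr6:141524104-141524403 (plus strand), has an E-box 20 bases downstream of the start. The second window of Thrb, chr14:17981394-17981693 (plus strand), has one 193 bases upstream.
Dio2: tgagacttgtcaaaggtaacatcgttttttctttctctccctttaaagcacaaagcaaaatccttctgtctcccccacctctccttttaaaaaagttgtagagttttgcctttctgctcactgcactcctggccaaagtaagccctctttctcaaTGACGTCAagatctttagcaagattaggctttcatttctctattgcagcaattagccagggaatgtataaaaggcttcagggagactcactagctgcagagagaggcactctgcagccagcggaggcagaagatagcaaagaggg
Dio3: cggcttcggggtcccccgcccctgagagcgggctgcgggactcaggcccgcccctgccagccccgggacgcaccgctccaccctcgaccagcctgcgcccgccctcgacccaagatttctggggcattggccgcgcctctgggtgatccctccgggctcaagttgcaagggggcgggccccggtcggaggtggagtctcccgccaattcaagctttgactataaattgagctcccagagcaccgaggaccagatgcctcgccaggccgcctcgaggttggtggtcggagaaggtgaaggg
Slco1c1: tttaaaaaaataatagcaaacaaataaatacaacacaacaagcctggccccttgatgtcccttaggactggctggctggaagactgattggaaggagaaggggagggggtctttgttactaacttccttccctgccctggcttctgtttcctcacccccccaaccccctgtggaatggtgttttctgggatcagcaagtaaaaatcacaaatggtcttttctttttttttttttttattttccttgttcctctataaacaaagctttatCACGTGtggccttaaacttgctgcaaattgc
Thrb, second window: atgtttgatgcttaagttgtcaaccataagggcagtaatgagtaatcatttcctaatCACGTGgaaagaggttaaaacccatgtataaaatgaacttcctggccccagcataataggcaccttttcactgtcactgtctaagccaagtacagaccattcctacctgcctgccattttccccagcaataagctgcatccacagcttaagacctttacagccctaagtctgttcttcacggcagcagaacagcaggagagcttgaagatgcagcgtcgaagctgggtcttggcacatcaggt

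The windows of Dio2 and Slco1c1 and the second of Thrb were the only ones of the 8 with a match to any of the 4 motifs searched. The first window of Thrb, not shown, holds none. Among all 32851 windows of the table, 1.79% hold the CRE and 7.15% the E-box. The other motifs were a D-box (TTATGTAA or TTACGTAA, 1.06% of windows) and a direct repeat bound by thyroid hormone receptors (DR4, 2 copies of AGGTCA with 4 bases between them, 0.0152% of windows). Dio2 and Dio3 were also called for time of day, averaged over LW and SC, and hold no E-box in their windows. A match describes these letters only, and its part in any change with time of day was not tested.

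Across the 8 genes, 3 were called between LW and SC, with Slco1c1 higher under LW and Dio3 and Thra lower. Of all genes tested, 9.49% were called in this comparison, 4.84% as higher and 4.65% as lower under LW. The differences of the called members were small, with folds of LW over SC of 1.18, 0.80 and 0.944, and all 3 calls held when the 2 SC libraries with liver transcripts were left out, at adjusted p = 0.0026 for Slco1c1, 0.0167 for Dio3 and 0.0242 for Thra in limma. Time of day, averaged over LW and SC, changed 4 of the 8 (Dio2, Dio3, Slco1c1 and Thrb), against 23.3% of all genes. None of the 8 was called for an interaction of condition and time, for which limma called 4.98% of all genes. With limma voom 0 of the 8 were called. At an unadjusted p under 0.05 there were 2 (Slco1c1 and Thrb), a level whose share over all genes was not computed. Markers of other eye tissues also moved with the condition. Of 7 lens markers 5 were higher under LW (median log2 difference 0.18), and their summed scaled count lay between 813160 and 934430 in LW eyes and between 722780 and 891870 in SC eyes. Of 6 corneal epithelium markers 5 were lower (median -0.21), with sums of 210210 to 306710 in LW eyes and 279840 to 330150 in SC eyes. Of 8 rod markers 3 were higher (median 0.03). The lens and corneal medians are within the sizes seen in the called members, and their part in the members' differences was not tested. The plot of scaled counts by time of day shows each eye, and the plot of seasonal differences shows all 8 with their intervals.

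**Figure D1:**
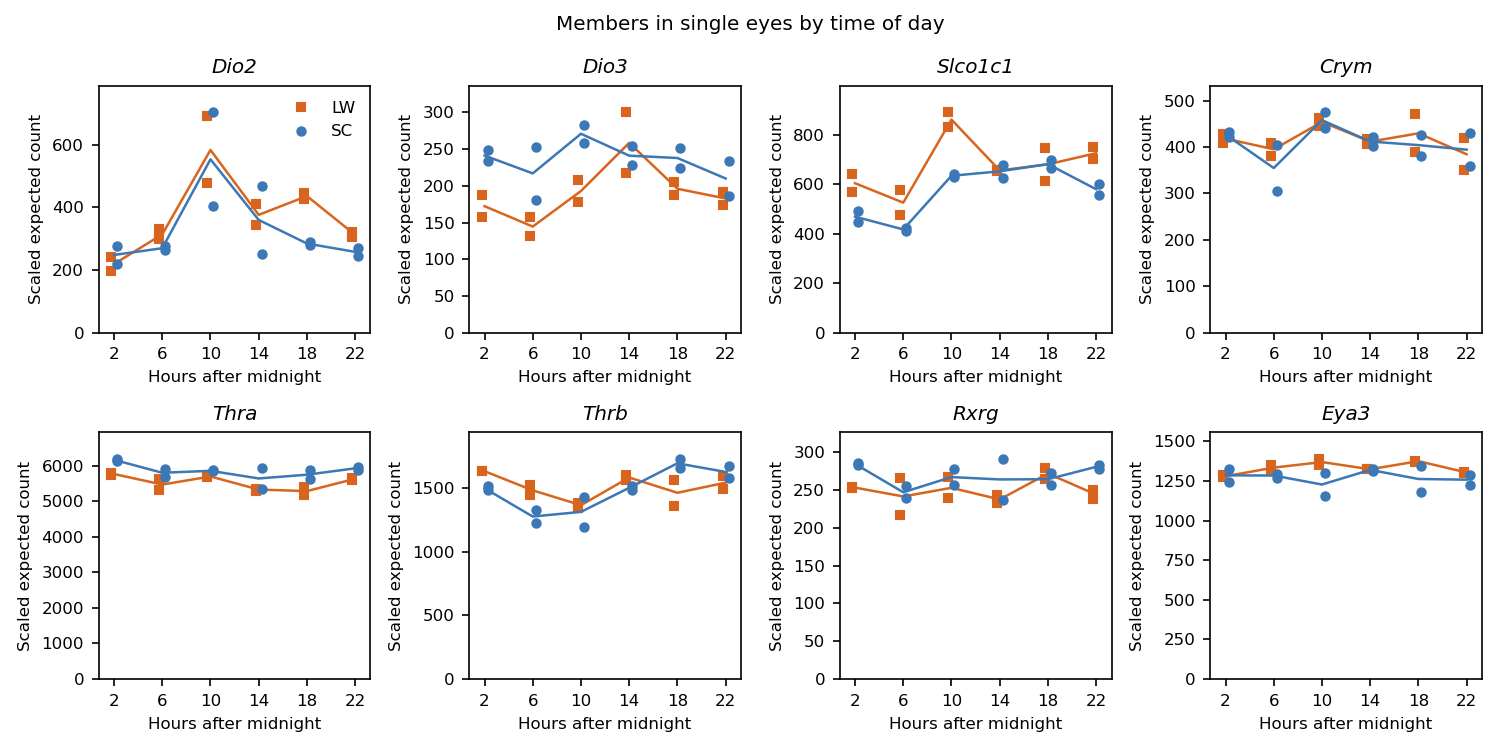
Scaled expected counts of the 8 genes in single eyes (LW, orange squares; SC, blue circles; 2 eyes at each time) against hours after midnight, with lines through the group means. Dio2 is highest at 10 h under both conditions, and Dio3 lies lower under LW at 5 of the 6 times.

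**Figure D2:**
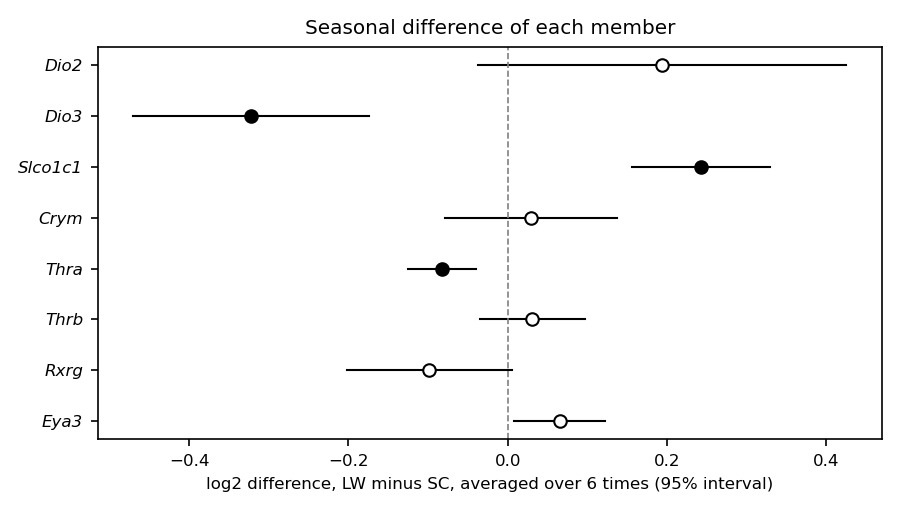
Log2 difference of LW minus SC, averaged over the 6 times, for each of the 8 genes, with 95% intervals from limma; filled points have an adjusted p under 0.05. Slco1c1 lies above 0, Dio3 and Thra lie below it, and the interval of Dio2 is the widest.

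Dio3, the inactivating deiodinase, was lower under LW. It had 131, 187 and 300 scaled counts (lowest, median and highest) in the 12 LW eyes, against 181, 241 and 283 in the 12 SC eyes. The LW eyes reached both ends of the range, since 5 of them lay below every SC eye and 1 lay above every SC eye. The means were 191 ± 42.0 under LW and 236 ± 29.3 under SC (SD, n = 12 each). The log2 difference was -0.32 (SE 0.07, 95% interval -0.47 to -0.17) with an adjusted p of 0.0062 in limma.

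The lower level of Dio3 under LW was not the same size at all times. At 2, 6, 10 and 18 h both LW eyes lay below both SC eyes, with log2 differences of -0.49, -0.57, -0.49 and -0.28. At 6 h, the time of the lowest LW level, the LW eyes had 131 and 157 scaled counts and the SC eyes 181 and 253. At 14 h the LW eyes had 217 and 300 scaled counts and the SC eyes 254 and 228, so that the groups overlapped and the difference was 0.08. At 22 h the pairs overlapped too, with 174 and 191 under LW, 186 and 234 under SC. The interaction test gave an adjusted p of 0.414, so a difference between times was not detectable with 2 eyes a group.

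Time of day changed Dio3 under LW (adjusted p = 0.0286 in limma, a comparison in which 19.0% of all genes were called), with its highest mean at 14 h and its lowest at 6 h, 1.79-fold apart. Under SC the highest and lowest means were 1.29-fold apart, with an adjusted p of 0.590. The call under LW rests on few eyes, since it was lost without the first eye of 6 h (adjusted p = 0.113), without the second eye of 14 h, which had the highest Dio3 of all 24 (0.191), or without all eyes of 6 h (0.0883) or of 14 h (0.236). The call averaged over LW and SC (adjusted p = 0.0450) was lost in 23 of 42 other settings.

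Dio2, the activating deiodinase, followed time of day more than season. It had 196, 336 and 690 scaled counts (lowest, median and highest) in LW eyes, against 219, 276 and 703 in SC eyes. The conditions overlapped over nearly the whole range, with 1 LW eye below every SC eye and 1 SC eye above every LW eye. The log2 difference was 0.19 (SE 0.11, 95% interval -0.04 to 0.42) with an adjusted p of 0.288 in limma, so that a higher level under LW was not detectable, and the interval includes increases as large as 0.42.

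Dio2 was highest at 10 h and lowest at 2 h under both conditions. At 10 h the LW eyes had 476 and 690 scaled counts and the SC eyes 403 and 703. At 2 h the LW eyes had 196 and 241 and the SC eyes 276 and 219. The highest and lowest means were 2.67-fold apart under LW and 2.23-fold under SC, the widest range over the day of the 8 genes, and a 24 h cosine fitted to the eyes peaked at 13.1 h under LW and at 11.4 h under SC. Time averaged over both conditions gave an adjusted p of 0.0023, time within LW 0.0177 and time within SC 0.0606, where 10.7% of all genes were called.

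The SC eye with the highest Dio2, the second eye of 10 h, is one of the libraries with liver transcripts, and its part in the level of Dio2 was not tested. Without both such libraries the adjusted p for time was 0.0083 averaged over LW and SC, 0.0066 within LW and 0.430 within SC. The call within LW was lost without the first eye of 2 h (adjusted p = 0.0874 in limma) or the second eye of 10 h (0.0719), without all eyes of 2 h (0.160), with limma voom (0.0606) and with the 24 h cosine (0.0654). Eyes of one time and condition differed more for Dio2 than for most genes, with a log2 SD of 0.29, which lies at percentile 98.5 of the 4681 genes within 2-fold of its level.

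By time, both LW eyes exceeded both SC eyes for Dio2 at 6, 18 and 22 h. The largest gap was at 18 h, with the lights on only under LW, where the LW eyes had 425 and 446 scaled counts, against 290 and 279 in SC eyes, a log2 difference of 0.61. At 6 h, the other time of light only under LW, the LW eyes had 330 and 297, against 275 and 263 in SC eyes, a difference of 0.22. At 2 h the difference had the other sign, -0.18, with overlapping pairs. The adjusted p of the interaction was 0.744, and these differences at single times are descriptions.

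The ratio of Dio2 to Dio3 scaled counts within an eye sets the 2 enzymes' transcripts side by side without a correction for transcript length. It was 1.14, 1.89 and 3.88 (lowest, median and highest) in LW eyes, against 0.880, 1.24 and 2.72 in SC eyes. In 5 SC eyes it lay below every LW eye, and in 1 LW eye above every SC eye. The mean ratio was 2.20 under LW and 1.28 under SC at 6 h, and 3.08 under LW and 2.07 under SC at 10 h. At 14 h the means were 1.51 under LW and 1.52 under SC. Dio1, the deiodinase of liver and kidney, averaged 1.90 scaled counts under LW and 1.26 under SC, too low to read.

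**Figure D3:**
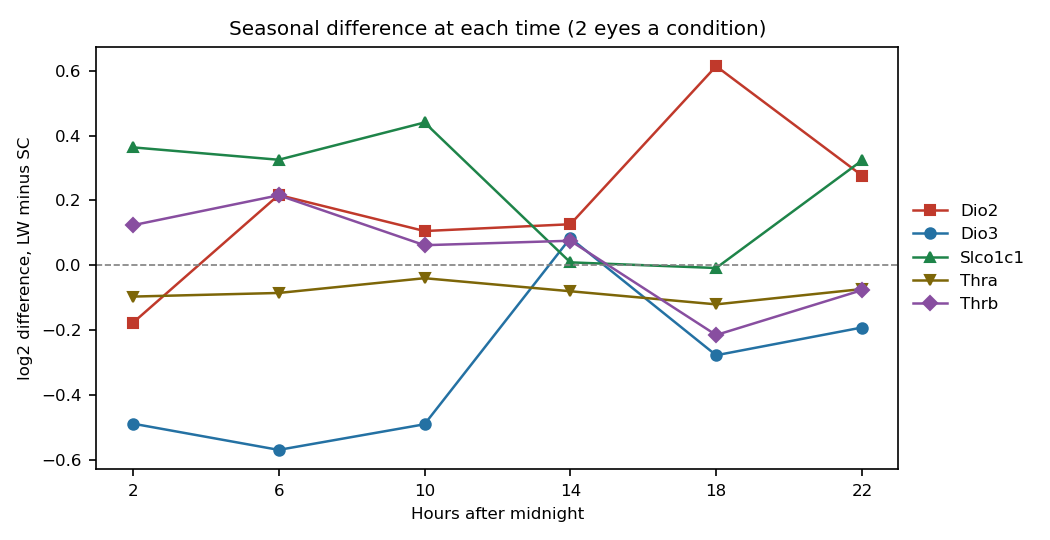
Log2 difference of LW minus SC at each of the 6 times for the 5 genes called in any comparison (Dio2, Dio3, Slco1c1, Thra and Thrb), from 2 eyes a condition and with no error bars. Dio3 lies near -0.5 at 2, 6 and 10 h and near 0 at 14 h, Slco1c1 lies near 0 at 14 and 18 h, and Thra stays just below 0.

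Slco1c1 encodes OATP1C1, a carrier of T4 that is known from the vessels of the brain barrier and from astrocytes. It had 474, 656 and 890 scaled counts (lowest, median and highest) in LW eyes, against 410, 614 and 698 in SC eyes. In 5 LW eyes it exceeded every SC eye, and 3 SC eyes lay below every LW eye. The means were 675 ± 117 under LW and 572 ± 104 under SC (SD, n = 12 each), and the log2 difference was 0.24 (SE 0.04, 95% interval 0.16 to 0.33) with an adjusted p of 7.8e-04 in limma.

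Both LW eyes exceeded both SC eyes for Slco1c1 at 2, 6, 10 and 22 h, with log2 differences of 0.36, 0.33, 0.44 and 0.32. The widest gap was at 10 h, with 890 and 832 scaled counts in LW eyes and 640 and 629 in SC eyes. At 14 and 18 h the pairs overlapped, and the differences were 0.01 and -0.01. The adjusted p of the interaction was 0.158, so that the lack of a gap in the afternoon and evening was not shown to differ from the other times.

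Slco1c1 was also the member with the strongest call for time of day, with adjusted p = 5.7e-04 under LW, 1.2e-04 under SC and 2.9e-06 averaged over both. Its lowest mean was at 6 h under both conditions. Its highest was at 10 h under LW and at 18 h under SC, and the range over the day was 1.64-fold under LW and 1.63-fold under SC. With a 24 h cosine in limma, time within LW was not called (adjusted p = 0.393). Whether the course under LW is a single daily wave was not tested.

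Of 8 markers of brain barrier endothelium, 1 was called, the glucose transporter gene Slc2a1, which was lower under LW (log2 difference -0.09, adjusted p = 0.0043). Slc2a1 made up 71.7% to 80.7% of the summed scaled count of the list, which lay between 9538 and 12742 in LW eyes and between 10322 and 12756 in SC eyes. Without it the sum of the other 7 lay between 2321 and 2838 (median 2713) in LW eyes and between 2358 and 3021 (median 2639) in SC eyes, and limma called 0 of them, with differences from -0.11 to 0.07 and 0 at an unadjusted p under 0.05. The part of these vessels in the level of Slco1c1 was not tested. Another organic anion carrier known from the same vessels, Slco1a4, was higher under LW (0.19, adjusted p = 0.0409), with 475 to 698 scaled counts under LW and 435 to 614 under SC.

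Crym encodes mu-crystallin, which binds T3 in the cytosol. It had 350, 413 and 471 scaled counts (lowest, median and highest) in LW eyes, against 304, 421 and 475 in SC eyes. The groups overlapped at all 6 times. The log2 difference was 0.03 (95% interval -0.08 to 0.14) with an adjusted p of 0.783, and no test of time passed, with adjusted p of 0.645 within LW, 0.334 within SC and 0.158 averaged over both.

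Thra, which encodes the widely expressed T3 receptor, was lower under LW by a small amount. Over the 6 times the log2 differences ran from -0.12 to -0.04, and the interaction was not called (adjusted p = 0.969 in limma). The count covers the 2 transcripts listed for the gene, and the part of either was not tested. Thra had 5171, 5614 and 5789 scaled counts (lowest, median and highest) in LW eyes, against 5330, 5876 and 6186 in SC eyes. In 9 SC eyes it exceeded every LW eye. The means were 5526 ± 209 under LW and 5852 ± 230 under SC (SD, n = 12 each), a log2 difference of -0.08 (SE 0.02, 95% interval -0.13 to -0.04) with an adjusted p of 0.0147 in limma. The mean was lower under LW at 6 of 6 times, and the pairs overlapped only at 14 h. The call was lost without the eyes of 2 h (adjusted p = 0.0536) or of 18 h (0.0504).

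Exons of Thra overlap those of Nr1d1, the gene of the clock repressor REV-ERB alpha, which lies on the other strand, over 263 of 4614 exon bases in GENCODE vM21. The libraries kept the strand, and whether the counting used it is not given in the sources used here. Nr1d1 changed strongly with time of day (adjusted p = 7.9e-07 averaged over both conditions) and not detectably with condition (log2 difference 0.06, adjusted p = 0.223). Thra was not called for time of day averaged over both (adjusted p = 0.0772 in limma), but it was in 2 of 42 alternatives. Its highest and lowest means over the day were 1.09-fold apart under each condition. The part of Nr1d1 in the level of Thra was not tested.

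Thrb encodes the receptor that cones use. Its count here covers the 19 transcripts listed for the gene in a whole eye. The part of any single transcript, or of cones, in it was not tested. Thrb had 1343, 1539 and 1631 scaled counts (lowest, median and highest) in LW eyes, against 1195, 1498 and 1727 in SC eyes. The SC eyes spread wider at both ends, with 3 above every LW eye and 3 below every LW eye. The log2 difference was 0.03 (95% interval -0.03 to 0.10) with an adjusted p of 0.592.

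Under SC, Thrb changed with time of day (adjusted p = 0.0029 in limma), with its highest mean at 18 h and its lowest at 6 h, 1.33-fold apart. The SC eyes had 1727 and 1657 scaled counts at 18 h and 1222 and 1328 at 6 h, and these pairs stood well apart. Under LW the highest mean was at 2 h and the lowest at 10 h, 1.2-fold apart, with an adjusted p of 0.131. At 6 h both LW eyes exceeded both SC eyes, a log2 difference of 0.22. At 18 h both lay below, a difference of -0.22. The interaction was not called (adjusted p = 0.119), but it was with both SC libraries with liver transcripts left out (0.0376) or with only the second SC eye of 10 h left out (0.049985), so whether the seasonal difference of Thrb turns over the day depends on those libraries.

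Rxrg encodes retinoid X receptor gamma, the partner with which Thrb sets opsin choice in cones. It had 217, 251 and 279 scaled counts (lowest, median and highest) in LW eyes, against 237, 275 and 291 in SC eyes. In 4 SC eyes it exceeded every LW eye, and in 2 LW eyes it lay below every SC eye. The log2 difference was -0.10 (95% interval -0.20 to 0.00) with an adjusted p of 0.223, and no test of time passed. The genes listed as cone markers, not all of them limited to cones, gave no common direction. Of these 10, 1 was called higher and 2 lower under LW, against 4.84% and 4.65% of all genes.

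Eya3 encodes a transcriptional partner and phosphatase that, in the pars tuberalis of sheep, switches on Tshb under long days. It had 1275, 1325 and 1390 scaled counts (lowest, median and highest) in LW eyes, against 1158, 1295 and 1347 in SC eyes. In 5 LW eyes it exceeded every SC eye, and 5 SC eyes lay below every LW eye. The means were 1332 ± 37.1 under LW and 1274 ± 59.9 under SC (SD, n = 12 each), and the log2 difference of 0.07 (95% interval 0.01 to 0.12) did not pass after adjustment (adjusted p = 0.141). Both LW eyes exceeded both SC eyes at 6, 10, 18 and 22 h. Eya3 was the steadiest of the 8 over the day, with highest and lowest means 1.07-fold apart under LW and 1.08-fold under SC and an adjusted p of 0.925 for time.

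Across the 24 libraries, the members themselves were not alike in course. The highest Pearson correlation between 2 of them was 0.55, for Dio2 and Slco1c1, and the lowest was -0.41, for Dio2 and Thra. Of the 14791 genes whose CPM averaged 1 or more, the one most like Dio2 was Umps (r = 0.89 over 24 libraries), followed by Kctd20 and Ythdf1 (0.88 each). Slco1c1 was most like Retreg3 and Scg2 (0.89 each) and Kdm5c (0.86). Thra was most like Eef2 (0.90), Septin4 (0.86) and Pcp2 (0.85). Among the genes most like Thrb were Lpgat1 (0.84) and Ryr2 (0.82). The best matches of the other 4 were weaker, with Ndufv1 for Dio3 (0.78), Alkbh1 for Crym (0.74), 0610010K14Rik for Eya3 (0.74) and Rpl36a for Rxrg (0.66). All points share condition, time of day and library, and the best of many genes is high by selection.

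The other genes of the pathway were grouped into 6 lists, shown in the plot of pathway genes, and set beside all genes tested, with a median absolute log2 difference of 0.07 and 4.84% called higher and 4.65% lower under LW. In transport and binding, 7 of 9 genes were tested, 1 was higher (Slco1a4) and 1 lower under LW, with a median log2 difference of 0.00. The lower one was Ttr, which encodes transthyretin, a carrier of T4 made in the pigment epithelium, with a difference of -0.19 (adjusted p = 7.7e-05). Ttr had 11255 to 12707 scaled counts in LW eyes and 12707 to 15092 in SC eyes, so that the ranges only touched. Of the 7 other markers of that tissue 1 was lower and 1 higher under LW, with differences from -0.40 to 0.21, and the part of that tissue in the level of Ttr was not tested. Slc16a10, which encodes a carrier of T3 and aromatic amino acids in the cell membrane, showed no detectable difference, at 0.02 (adjusted p = 0.889). Slc17a4 and Serpina7 were at 0 in all LW eyes and were not tested.

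The list of deiodination and its helpers holds selenoprotein synthesis genes and the ubiquitin genes that remove or spare the Dio2 protein. Of its 8 genes, 0 were called in either direction by limma or by limma voom, with a median of -0.02. At an unadjusted p under 0.05 there were 2 (Marchf6 and Eefsec), and no share over all genes was computed for that level. The ubiquitin ligase subunit gene Wsb1, which targets the Dio2 protein, changed with time of day (adjusted p = 5.6e-05 averaged over both) and averaged 1917 scaled counts under LW and 1916 under SC. Of 12 receptor partners, 1 was lower under LW, the coactivator gene Ncoa3 (-0.07, adjusted p = 0.0469), which limma voom did not call, and the median was -0.01. The remaining retinoid X receptors were not called, with 0.01 for Rxra (adjusted p = 0.854) and 0.04 for Rxrb (0.480). Time of day within LW changed 8 of these 12, against 19.0% of all genes.

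Of 12 genes known to respond to T3 in brain, liver or cultured cells, 1 was higher and 2 were lower under LW. Of all genes, 4.84% were called higher and 4.65% lower. The median was -0.09, against 0.00 over all genes. At an unadjusted p under 0.05 in limma, 1 was higher and 6 were lower, a level whose share over all genes was not computed. With limma voom 4 of the 12 were called, and 1667 over all genes tested. The corepressor gene Hr fell by 0.14 on the log2 scale under LW (adjusted p = 0.0039), with 2514 to 3418 scaled counts under LW and 2881 to 3390 under SC. Flywch2 fell by 0.32 (adjusted p = 0.0084), with means of 152 scaled counts under LW and 189 under SC. Me1, the gene of malic enzyme, rose by 0.08 (adjusted p = 0.0349). Klf9, a direct target in many tissues, had a difference of -0.12 with an adjusted p of 0.0553 and was not called.

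For thyrotropin and its photoperiod partners, 11 of 12 genes were tested and 0 were called by season in limma or in limma voom, with a median of 0.00 and 1 gene, Eya2, at an unadjusted p under 0.05. Tshb, the beta subunit of thyrotropin, was present in whole eyes, with 149 to 222 scaled counts in LW eyes and 163 to 218 in SC eyes, a difference of -0.04 (adjusted p = 0.721). Cga, the gene of the alpha subunit that the hormone also needs, was at or near 0, with a mean of 0.0802 scaled counts under LW and 0 under SC. Tshr, the receptor, averaged 416 scaled counts under LW and 396 under SC (difference 0.07, adjusted p = 0.369). The melatonin receptor gene Mtnr1a averaged 7.10 under LW and 6.72 under SC and was too low to read, as was Mtnr1b.

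Of 13 genes of cone opsins and opsin choice, 3 were higher and 2 were lower under LW, against 4.84% and 4.65% of all genes, with a median of 0.01. The M opsin gene Opn1mw, whose expression needs T3 and Thrb in mice, was lower under LW, with a difference of -0.19 (adjusted p = 0.0015). Its means were 1194 scaled counts under LW and 1365 under SC. The eyes overlapped, with 1110 to 1287 scaled counts under LW and 1157 to 1590 under SC. The part of T3 or Thrb in this difference was not tested. The paper reports no clear change of rhodopsin family genes in these data. The S opsin gene Opn1sw had a difference of 0.04 (adjusted p = 0.271). Higher under LW were Neurod1, which maintains Thrb in cones (0.15, adjusted p = 0.0011), Nr2f2 (0.14, 0.0450) and Nrl (0.07, 0.0355). Samd7, a repressor in rods, was lower on average (-0.15, adjusted p = 0.0279). Its difference varied between times (interaction adjusted p = 0.0015 in limma), from 0.45 at 6 h to -0.73 at 22 h.

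**Figure D4:**
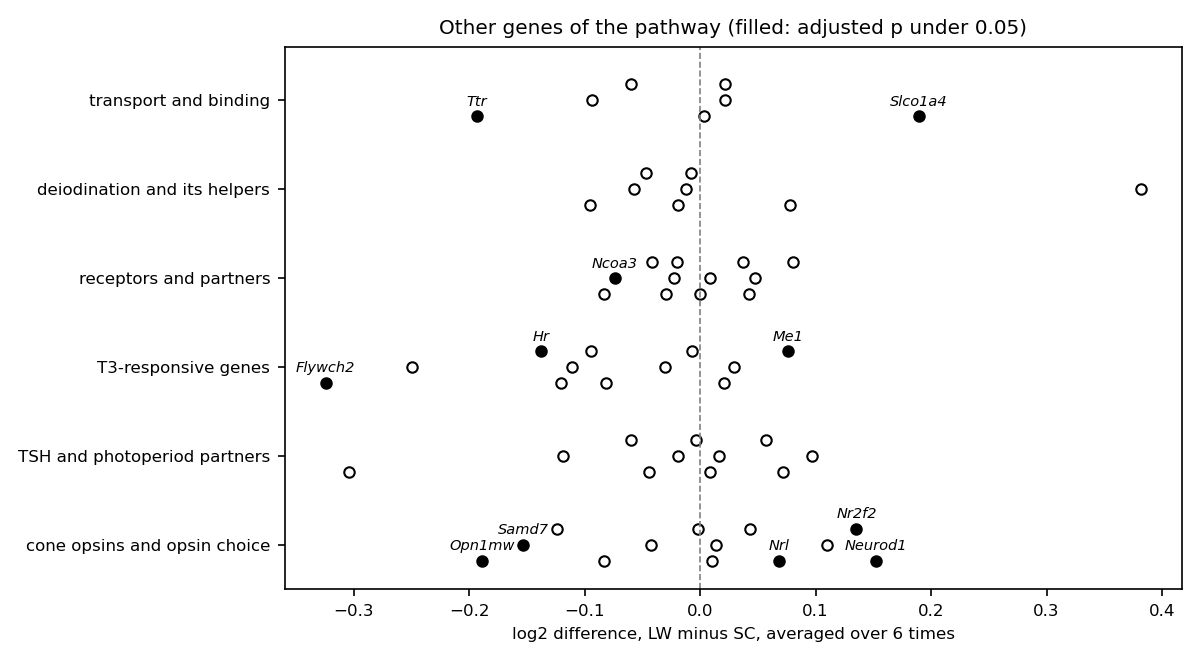
Log2 difference of LW minus SC, averaged over the 6 times, for each tested gene of the 6 pathway lists (1 point a gene, in 6 rows, spread vertically only to separate points); filled, named points have an adjusted p under 0.05 in limma. Most points lie within 0.1 of 0, and called genes lie on both sides.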

How the data were processed

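RNA was taken from 24 whole eyes, and strand-specific mRNA libraries (TruSeq) were sequenced as paired reads. The authors mapped reads with HISAT2 2.0.4 (GRCm38.p6, both per the submitters' processing notes), used RSEM (version not given in the sources used here) for quantification and deposited 1 table of expected counts, of which 89.6% are whole numbers. There is no 0 in it, and the 43565 cells without a number (8.90% to 10.3% of a library) were read as 0. By a rule on tables with such cells, the planned count models were not run and limma was used in their place. The cells themselves did not prevent a count model, and limma voom was run with them read as 0.

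Conditions and times were taken from the sample labels. TMM factors, computed with 30% and 5% trimming, lay between 0.982 and 1.02. Genes with at least 1 scaled count in at least 2 libraries entered limma 3.58.1 in R 4.3.3 (with its trend and robust settings) on log2(scaled count + 1), with 12 group means and 12 residual degrees of freedom. Contrasts were LW minus SC averaged over times, the interaction, and time within LW, within SC and averaged over both. Adjusted p-values under 0.05 were called. The method was tested on simulated data with the same dispersion for every gene, so that test does not bear on the calls of single members. Alternatives were other scalings, pseudocounts and filters, a replicate block, a 24 h cosine and libraries or times left out; rounded counts and limma voom were added after seeing the data. Plots used matplotlib 3.10.9 in Python 3.11.15.

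The 8 members and all lists were chosen with earlier results of these data known. Named are the members, up to 4 called genes a list and contrast by smallest p, direct partners of members, and up to 3 genes most like a member; Nr1d1 and the endothelial marker were named after their values were seen, and the marker sums without Slc2a1 or Ttr were added then. Same-numbered eyes of different groups deviated with correlations from -0.05 to 0.24 (median 0.00 over 66), so replicate numbers were not used as pairs. Protein sequences were not used here. Values of a few listed genes are not reported here.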

Additional observations from a re-analysis of the deposited data

Results flagged for a closer look

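The interaction test of limma called 0 of the 8 members, against 4.98% of all genes, which does not set the members apart. Thrb was called in 2 of 41 alternatives. Of the 62 other pathway genes considered here, 8 were called, and the adjusted p of that test stands in parentheses. In the clock and photoperiod list these were Per1 (5.1e-06), which was higher under LW at 22 h, with 3472 scaled counts under LW and 2310 under SC (log2 difference 0.58), and lower at 10 h, with 2481 under LW and 3679 under SC (-0.57), and Tef (2.1e-04), with -0.29 at 10 h and 0.20 at 18 h. In the opsin list Nr2e3 (5.1e-05), a rod gene, had differences of -0.72 at 2 h, 0.51 at 6 h and 0.32 at 18 h, and Samd7 (0.0015) of -0.73 at 22 h and 0.45 at 6 h. Among receptor partners Trip12 (0.0016) had 0.27 at 6 h and -0.27 at 22 h, and Ncoa1 (0.0047) 0.26 at 2 h and -0.21 at 22 h. The amino acid and T3 carriers Slc7a5 (0.03) and Slc7a8 (0.044) had -0.48 at 6 h and 0.19 at 22 h for Slc7a5, and -0.21 at 2 h and 0.14 at 22 h for Slc7a8.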

How the results depend on the processing

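The calls of Dio3 (adjusted p from 0.0024 to 0.0397) and Slco1c1 (2.3e-04 to 0.0124) between LW and SC held in all 41 alternatives, and that of Thra in 39. With the 2 h eyes left out, 950 genes passed between LW and SC (438 higher and 512 lower under LW), 547 for the interaction and 2203 for time within LW, against 1730 (883 and 847), 908 and 3467. The interaction gave 600 genes without 6 h and 475 without 22 h. Without 10 h, time gave 2088 genes within LW, 1145 within SC and 2435 averaged over both, against 3467, 1960 and 4257. A 24 h cosine gave 1554 within LW, where 1 member was called, and 1283 within SC. Without the 2 libraries that held liver transcripts, time within SC gave 1208 and 1 member was called for the interaction. Not called and of changed sign were the log2 differences of Crym without the second SC eye of 6 h (-0.0053, the other eyes left out giving up to 0.065) and of Thrb without the eyes of 6 h (-0.0057). Leaving out 1 eye gave 1196 to 2205 genes between LW and SC (598 to 1218 higher, 598 to 1000 lower), 626 to 956 for the interaction, 2438 to 3671 within LW, 1442 to 2042 within SC and 3352 to 4347 averaged, with 3 members called between LW and SC each time and 0 to 1, 2 to 3, 2 to 3 and 3 to 5 in the other tests. With a replicate block, 1641 genes and 3 members were called between LW and SC. The cause of these changes was not tested, beyond fewer eyes. The planned count models (edgeR and DESeq2) were not run. With 2 eyes a time, differences at a single time are descriptions, and low genes (Dio1, Cga, Mtnr1a, Mtnr1b) cannot be compared.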
